A study of Mus musculus with 2 samples.

Results

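Of the 18414 elements on the mouse autosomes, X and Y in the authors' deposited STARR-seq table, 509 (2.76%) held at least 1 exact copy of the full cyclic AMP response element (CRE), the 8 bp palindrome TGACGTCA. They were found by reading the GRCm38 sequence of each element from start to end, so that membership follows from sequence and not from the fold. The whole table, other scaffolds included, has 18431 elements. In STARR-seq, fragments of the genome are cloned inside a reporter transcript, so that each fragment's RNA measures how far it drives or lowers its own transcription. The 2 output libraries came from T-helper 2 (Th2) primary cells of C57BL/6NJ mice into which the plasmids were brought by transient transfection. They are labelled as replicates 1 and 2. Both had been activated with anti-CD3e (0.25 ug/mL) and anti-CD28 (1 ug/mL) over 3 days, and kept with anti-interferon-gamma (2 ug/mL), interleukin-2 (4 days) and interleukin-4, so these agents are shared by every value below and there is no unstimulated group. Sex and age were not recorded, and both libraries name the same donor record. The plasmid is carried outside the chromosomes, which limits the assay to what a fragment does away from its own locus. No gene expression was measured, so the cell type could not be checked against its markers.

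Each element has 1 fold, 1 p-value and 1 q-value made from both libraries together. No spread between the libraries can therefore be given, and nothing shows how many reads each element received. P-values across elements, below, therefore describe the spread among elements and not among libraries or animals. The fold is read as log2 of RNA output over input DNA, although neither its base nor its denominator is given in the sources used here. Elements with a fold above 0 are termed positive and those below 0 negative, and every element in the table had a q-value below 0.01.

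The CRE is the binding site of the CREB, CREM and ATF proteins, basic leucine zipper factors that bind DNA as dimers, each subunit reading one arm of the palindrome. CREB is phosphorylated when cyclic AMP activates protein kinase A, and in T cells also after T-cell receptor signals, and it then recruits coactivators of the CBP and CRTC families. CREM also gives rise, from a start inside its gene, to the repressor ICER, which closes a feedback loop. The palindrome has a CpG at its middle, and CREs of known target genes often lie close upstream of the start of transcription.

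Printed first are 5 of the 8 positive promoter members named for their low q-values, to show the palindrome in varied surroundings. A promoter element is one whose midpoint lies within 1000 bp of a GENCODE M21 start of a protein-coding transcript, and every other element is called distal. Sequences here and below are the plus strand of GRCm38, 5′ to 3′, with the palindrome in capitals, and runs that would enter an annotated UTR are cut to 30 bases.
Babam2 (chr5:31698500-31698567): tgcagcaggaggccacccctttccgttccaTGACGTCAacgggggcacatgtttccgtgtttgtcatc
Shisa5 (chr9:109054848-109054877): cttcctgctgcTGACGTCAggaatggggaa
Atp5d (chr10:80141362-80141429): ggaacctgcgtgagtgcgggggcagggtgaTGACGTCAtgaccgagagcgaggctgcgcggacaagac
Epb41 (chr4:132008335-132008402): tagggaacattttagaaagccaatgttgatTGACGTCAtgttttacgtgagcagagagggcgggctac
Trim26 (chr17:36837029-36837096): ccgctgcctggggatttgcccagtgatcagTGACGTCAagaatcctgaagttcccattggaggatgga

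The promoter members with a negative fold, shown for contrast, carry the identical 8 bases.
Cmip (chr8:117256588-117256655): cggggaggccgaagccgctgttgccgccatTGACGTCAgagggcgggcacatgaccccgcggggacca
Kif17 (chr4:138262135-138262202): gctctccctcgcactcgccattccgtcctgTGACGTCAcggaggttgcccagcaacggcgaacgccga
Pde7a (chr3:19311383-19311450): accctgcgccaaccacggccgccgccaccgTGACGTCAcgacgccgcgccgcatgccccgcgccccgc

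The distal members are shown by 5 of the 8 positive ones named for their low q-values, near Hfe2, Sugct, Pde4d, Maml3 and Cd53, followed by a negative one near Nemf.
Hfe2 (chr3:96489421-96489488): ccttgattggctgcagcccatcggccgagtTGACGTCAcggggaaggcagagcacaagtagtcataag
Sugct (chr13:17385088-17385155): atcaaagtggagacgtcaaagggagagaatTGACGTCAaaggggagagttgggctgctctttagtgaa
Pde4d (chr13:109822567-109822634): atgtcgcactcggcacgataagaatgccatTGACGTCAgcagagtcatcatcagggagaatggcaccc
Maml3 (chr3:52048224-52048291): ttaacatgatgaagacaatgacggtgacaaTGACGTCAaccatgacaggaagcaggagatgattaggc
Cd53 (chr3:106785333-106785400): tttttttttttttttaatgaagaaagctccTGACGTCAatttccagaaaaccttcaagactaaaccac
Nemf (chr12:69361496-69361563): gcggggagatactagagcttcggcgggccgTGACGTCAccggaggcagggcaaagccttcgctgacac

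Elements with the palindrome were positive more often than other elements of the same kind, both at promoters and away from them. Of the 509 members 396 were positive and 113 negative, which is 77.8% positive (exact 95% binomial interval 73.9 to 81.3, counting error over elements only), beside 71.5% of all elements. The members were split almost evenly between promoters (250) and distal sequence (259), and the mixture hides a wider gap within each class. At promoters 144 of 250 members were positive, 57.6% (51.2 to 63.8), beside 31.6% of all promoter elements. In distal sequence 252 of 259 members were positive, 97.3% (94.5 to 98.9), beside 89.2% of all distal elements. The distal members comprised 139 intronic elements (136 positive), 104 intergenic elements (100 positive) and 16 exonic elements, all of them positive, where 75.9% of the 952 other exonic elements were positive.

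These differences were tested in a logistic regression of the sign over all 18414 elements, with terms for promoter class, a spline of GC content, the CpG ratio and width, and with errors clustered by 1 Mb windows. Adjusted p-values cover the 7 contrasts made in this way. The odds of a positive against a negative fold were 4.35 times higher with the palindrome (n = 509 members, 95% interval 3.25 to 5.82, adjusted p = 2.56e-22). These odds hold among elements that passed the q-value, and say nothing of sequence outside them. The odds ratio was 3.91 at promoters (n = 250, 2.87 to 5.33, adjusted p = 2.38e-17) and 8.04 in distal elements (n = 259, 3.16 to 20.4, adjusted p = 2.81e-05). The wide distal interval rests on 7 negative members, and among elements with a q-value below 0.001, where 4 were left, the distal call was lost (log odds ratio 0.91 against 2.08, n = 183, adjusted p = 0.145). The difference between the promoter and distal effects did not pass the threshold. The log odds ratios differed, promoter minus distal, by -0.72 (n = 509, -1.68 to 0.24, adjusted p = 0.157). On the signed log2 fold itself, a linear fit with the same terms gave members a value higher by 0.49 ± 0.08 (SE) at promoters and by 0.47 ± 0.06 in distal elements. Small folds of either sign are absent from these elements, so this value mixes the share of positive elements with the size of the fold.

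Among elements that were already positive, the size of the fold shifted little at promoters and more in distal sequence. The median log2 fold of the positive promoter members was 1.04 (quartiles 0.81 and 1.37), beside 1.02 for the positive promoter elements without the palindrome. Values of 2 or more were rarer among these members, at 9.03% against 15.4%. Positive distal members had a median of 1.48 (quartiles 1.11 and 2.09), beside 1.23 for the others, and 27.4% against 19.4% reached 2. The highest member was at 5.85. Negative promoter members resembled other negative promoter elements, with medians of -1.27 and -1.29, and the lowest member, at the promoter of Gnao1, stood at -4.48. The 7 negative distal members lay between -1.42 and -0.81. These sizes among elements of 1 sign were not tested.

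**Figure D1:**
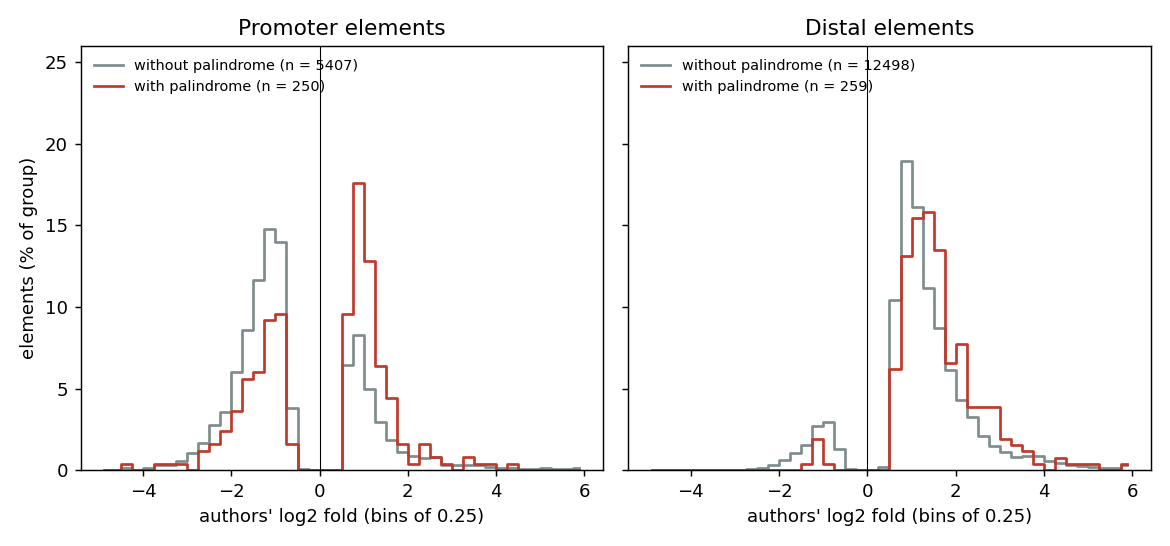
Distribution of the authors' log2 fold in promoter elements (left) and distal elements (right), as a percentage of each group per bin of 0.25, with values beyond the axis counted in the end bins; red lines are elements with the palindrome and grey lines those without. At promoters the members' weight lies on the positive side (57.6% positive) and that of the others on the negative side, while distal members are nearly all positive (97.3%).

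Fewer elements were positive at high GC content, but members had the higher share in each of the ranges that follow. Below a GC content of 55%, 24 of 25 promoter members were positive (79.6 to 99.9), beside 85.8% of the 716 other promoter elements (83.0 to 88.2). The members' interval includes the others' share there. From 55% to under 65%, 96 of 126 promoter members were positive (76.2%, 67.8 to 83.3), beside 46.7% of 1847 others (44.4 to 49.0). At 65% or more the members had turned mostly negative, with 24 of 99 positive (24.2%, 16.2 to 33.9), but the others more so, at 5.84% of 2844 (5.00 to 6.76). In steps of 5 points the members' share was 93.9% from 55% to 60%, 64.9% from 60% to 65% and 28.6% from 65% to 70%, while that of the others was 64.9%, 35.9% and 9.17%.

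Distal members were less GC-rich and gave the same order. Below 55% GC, 217 of 220 were positive (98.6%) beside 92.1% of the others, and from 55% to under 65%, 29 of 31 (93.5%) beside 75.8%. Of the 8 distal members at 65% or more 6 were positive, where 16.7% of 294 others were. Positive promoter members had a median GC content of 60.1% and a median ratio of observed to expected CpG of 0.77, and negative ones 67.1% and 0.86.

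**Figure D2:**
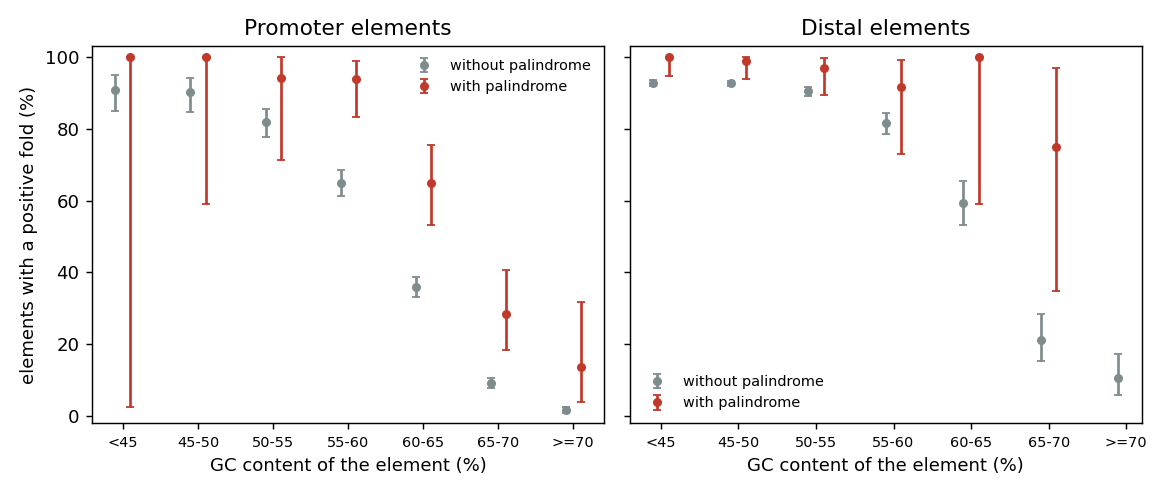
Percentage of elements with a positive fold by GC content of the element, for promoter (left) and distal (right) elements with (red) and without (grey) the palindrome; bars are exact 95% binomial intervals over elements. Between 55% and 65% GC at promoters, 76.2% of members and 46.7% of other elements were positive.

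The exact palindrome stood near the top of all sequences of its length. The same covariates were used to score every 8-mer, both strands pooled, that occurred in 50 or more elements, with Benjamini-Hochberg adjustment over all of them. Errors were not clustered by window in these scores, which treat elements as independent. Over all elements TGACGTCA ranked 2 of 30884 8-mers by its score for positive elements (z = 9.84, n = 18414 elements, adjusted p = 1.21e-18), where 0.735% of 8-mers were called higher in positive elements. Only AAGATGGC, which overlaps the consensus of the factor YY1, ranked above it. At promoters the palindrome again ranked 2, of 22033 (z = 8.21, n = 5657, adjusted p = 2.42e-12, with 0.313% of 8-mers called higher), and in distal elements it ranked 3 of 24923 (z = 5.24, n = 12757, adjusted p = 1.21e-04, with 0.341% called higher). Among 8-mers that are their own reverse complement it was first in each set, of 204 over all elements, 101 at promoters and 147 in distal sequence. In distal elements with a q-value below 0.001 it fell to rank 468 and was not called (n = 7776 elements, adjusted p = 0.672).

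Several sequences 1 change away from the palindrome were called as well. Of the 12 sequences that differ from it by 1 base, strands pooled, 9 were called higher in positive elements, and 8 were when elements with the full palindrome were left out. Positions are counted from 1 at the 5′ end. With those elements left out the highest score was that of TGATGTCA (C4T, z = 5.24, in n = 947 elements, adjusted p = 1.14e-04), which replaces the CpG by a TpG. In all distal elements, those with the palindrome included, this variant ranked first of all 8-mers (z = 5.49, in n = 816 elements, adjusted p = 3.87e-05). Of the 795 distal elements that held it without the palindrome 767 were positive (96.5%). Next came AGACGTCA (T1A, z = 4.94), TGAGGTCA (C4G, z = 4.83) and TCACGTCA (G2C, z = 4.67).

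Changes at the second base all kept a call, whereas GGACGTCA (T1G, z = 0.29), TGCCGTCA (A3C, z = 1.42), TGAAGTCA (C4A, z = 2.11) and CGACGTCA (T1C, z = 2.43, n = 115, adjusted p = 0.189) did not pass the threshold. At promoters, with the palindrome's elements included, 3 of the 11 variants with enough elements were called, led by TGGCGTCA (A3G, z = 6.21, in n = 128 elements, adjusted p = 9.86e-07). It was in 108 promoter elements without the palindrome, of which 51 were positive (47.2%). The shorter site TGACG, a single arm of the palindrome with its CpG, without a full palindrome was common, in 2623 promoter and 3288 distal elements. Their shares of positive elements were 32.9% (31.1 to 34.7) at promoters and 92.2% (91.2 to 93.1) in distal sequence. Of all elements of each class 31.6% and 89.2% were positive. These totals include the elements with the shorter site, so they are not a separate group to compare with. Among promoter elements without the palindrome, TGACG was in 52.5% of the positive and 46.8% of the negative ones. In distal sequence it was in 27.2% and 18.8%. These differences were not tested. No term for the shorter site was fitted, so these shares are not adjusted for GC content.

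Most members held a single palindrome. In total 484 had 1 site, 23 had 2 and 2 had 4, and 18 of the 25 with more than 1 were promoters. At promoters 12 of these 18 were positive (66.7%, 41.0 to 86.7) beside 132 of 232 with 1 site (56.9%, 50.3 to 63.4), and in distal sequence all 7 were positive beside 245 of 252. In the regression, 2 or more sites had higher odds of a positive fold than 1 (log odds ratio 1.13 ± 0.49 (SE), n = 25, adjusted p = 0.0391). The call rested on 6 negative elements, and it was lost at a q-value below 0.001 (0.94), with GC content as a linear term (0.77) and when only sites in the central 200 bp were counted (0.33). The smallest distance from start to start in each of the 25 elements ran from 11 to 1080 bp with a median of 52 bp, and in 12 elements it was at most 50 bp.

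The closest pair, shown because its palindromes are 11 bp apart, lies in the promoter of Atp6v0c, which encodes a membrane subunit of the vacuolar proton pump. That element had a log2 fold of 1.70.
Atp6v0c (chr17:24169104-24169132): gggaaTGACGTCAgagTGACGTCAcgccc

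Both elements with 4 palindromes were promoters of opposite sign. The Csf2ra element, at the gene of the GM-CSF receptor alpha chain, was at 1.49 with a GC content of 66.6%, and the Map1lc3a element, at an autophagosome protein gene, was at -1.93 with a GC content of 70.7%. The element of Slc5a1, a sodium and glucose cotransporter, held 2 palindromes in an intron and was at 2.83.

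The position of the palindrome within the element was compared by class, since most positive members are narrow distal elements and most negative ones wide promoter elements. The fragments that made up each element are not known, so these are positions in the element and not in a tested fragment. Taking in each element the palindrome nearest to its centre, the median distance at promoters was 131.5 bp in positive members (median width 875 bp) and 155 bp in negative members (950 bp). As a share of the way from centre to edge these medians were 0.293 and 0.366. In distal sequence the medians were 50.2 bp in positive members and 189.5 bp in the 7 negative ones, but as a share of the way to the edge the order turned, with 0.286 and 0.249. Over both classes the medians were 65.5 and 155.5 bp. These medians were not tested. In the outermost part of the element, beyond 0.8 of the way to the edge, lay 15 of 396 positive members (3.79%) and 16 of 113 negative ones (14.2%). At promoters alone the counts were 6 of 144 and 14 of 106.

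Members with a palindrome within 100 bp of the centre were positive in 243 of 278 cases (87.4%), and the others in 153 of 231 (66.2%). The shares were 67.0% and 51.6% at promoters, and 98.3% and 94.9% in distal sequence. In the regression, which holds width, the log odds ratio was 0.69 ± 0.32 (SE, n = 278 near, adjusted p = 0.0462). As an odds ratio this is 1.99, with a wide 95% interval of 1.06 to 3.74. The call did not hold with a q-value below 0.001 (0.15) or with promoters of 500 bp (0.67, n = 278, adjusted p = 0.0545). The linear fit of the fold gave a value of the opposite sign, smaller than its error (-0.046 ± 0.10 (SE) on the log2 scale, n = 278 near, adjusted p = 0.758).

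**Figure D3:**
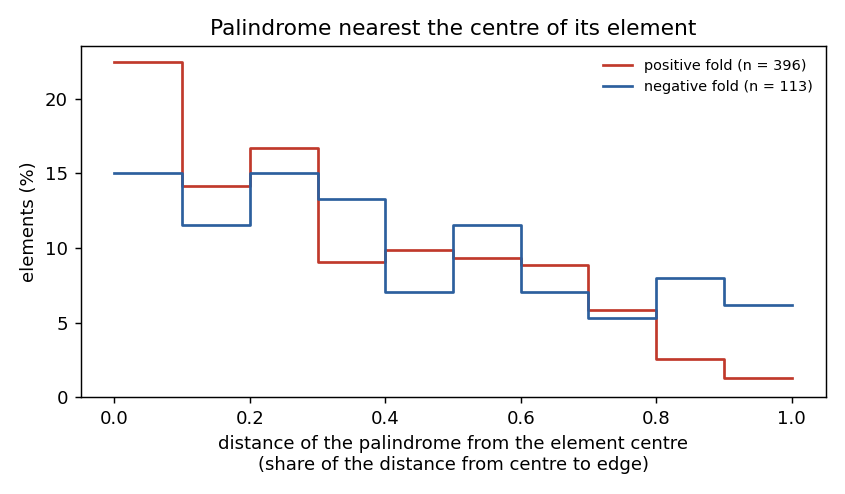
Distance of the palindrome nearest the centre of its element, as a share of the distance from centre to edge (0 is the centre, 1 the edge), as a percentage of the 396 positive (red) and 113 negative (blue) members, promoter and distal together. Beyond 0.8 lay 3.79% of the positive and 14.2% of the negative members.

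Promoter palindromes were concentrated just upstream of the start, whether or not they lay in an element. Of the 250 promoter members 117 had their palindrome within the 100 bp upstream of the nearest protein-coding start. Of all 1043 palindromes of the genome within 1000 bp of a start, 437 lay in that stretch, so this placing is not read as a trait of the members. Of the 117 members 66 were positive (56.4%, 46.9 to 65.6). Nearness to the start did not raise the share of positive elements. Within 200 bp of a start 98 of 178 promoter members were positive (55.1%), and farther away 46 of 72 (63.9%), with median GC contents of 63.7% and 61.4%. The log odds ratio, near minus far, was -0.50 ± 0.35 (SE, n = 178 near, adjusted p = 0.157). It passed the threshold at a q-value below 0.001 (-1.09, n = 160 promoter members, adjusted p = 0.0374) and in the linear fit of the fold (-0.40 on the log2 scale, n = 178 near, adjusted p = 0.0231). Upstream sites gave 105 positive of 191 and sites at or downstream of the start 39 of 59.

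**Figure D4:**
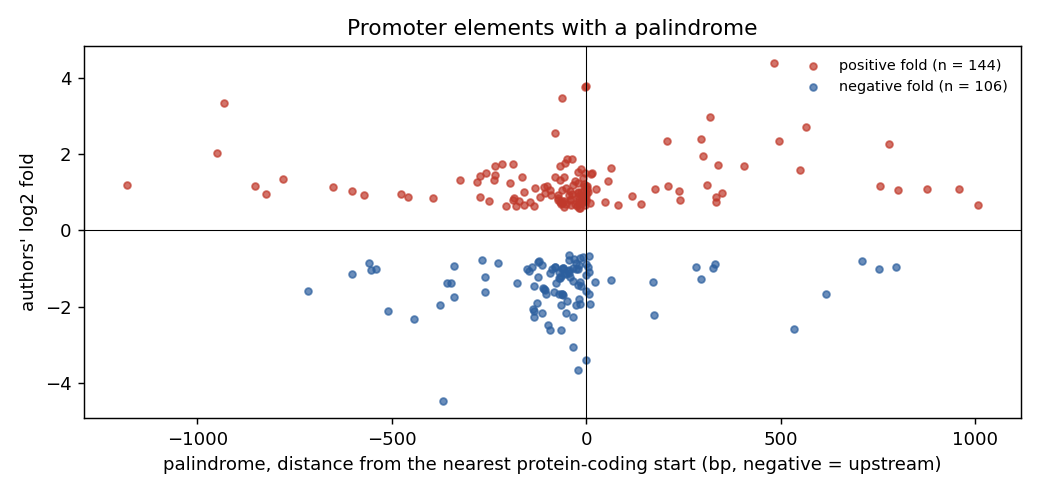
Log2 fold of the 250 promoter members against the distance of their palindrome from the nearest protein-coding start, in bp, with negative distances upstream; red points are positive and blue points negative elements. Points of both signs crowd into the 100 bp upstream of the start, which hold 117 of the 250 members. The same stretch holds 437 of the genome's 1043 palindromes within 1000 bp of a start.

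The genome supplies a denominator that the table lacks. The assembled chromosomes hold 14499 exact palindromes, of which 538 (3.71%) lay wholly inside an element. Within 1000 bp of a protein-coding start there were 1043, and 270 of these were in an element (25.9%, 23.3 to 28.7), 156 in a positive and 114 in a negative one. Beyond 1000 bp there were 13456, of which 268 were in an element (1.99%, 1.76 to 2.24), 261 positive and 7 negative. The share was 2.61% from 1 to 10 kb, 2.51% from 10 to 100 kb and 0.771% farther away. Around the start, 437 palindromes lay in the 100 bp upstream and 27.9% of them were in an element. From 200 to 100 bp upstream it was 38 of 95. In that range and from 100 to 50 bp upstream, palindromes in negative elements outnumbered those in positive ones (21 to 17 and 25 to 22). Which regions were tested is not known here, so a palindrome outside every element may have been tested without passing, or not covered. The share of other sequence that lies in an element at these distances was not computed. The change with distance is therefore not read as a trait of the palindrome.

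**Figure D5:**
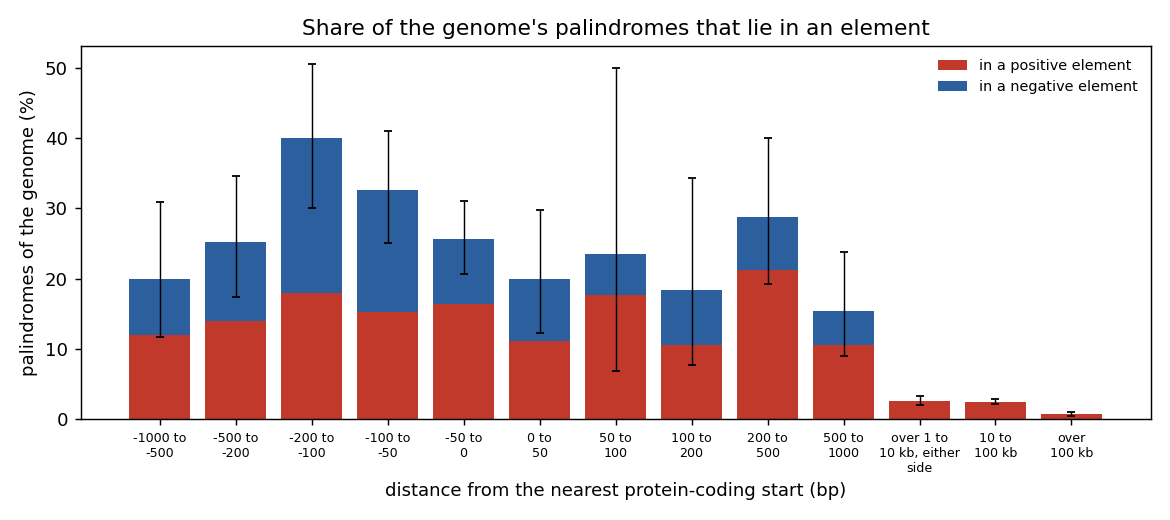
Percentage of all exact palindromes of the assembled chromosomes that lie inside a positive (red) or negative (blue) element, by distance from the nearest protein-coding start in bp (the last 3 bars pool both sides); bars are exact 95% binomial intervals of the total. The share is 25.9% within 1000 bp of a start and 1.99% beyond. The same share for other sequence was not computed.

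The bases beside the palindrome had different frequencies at promoters and in distal sequence. In the genome gTGACGTCAc made up 19.4% of the palindromes within 1000 bp of a start and 5.89% of those beyond. With the strands pooled there are 10 classes of flanking base, described here for members with 1 site and not tested. At promoters gTGACGTCAc, cTGACGTCAc and aTGACGTCAc made up 21.6%, 26.7% and 16.4% of the members. The first was positive in 22 of 50 (44.0%), the second in 32 of 62 (51.6%) and the third in 23 of 38 (60.5%), with median GC contents of the elements of 64.7%, 63.0% and 62.7%. Of the promoter members with aTGACGTCAg 14 of 18 were positive, and with gTGACGTCAa 12 of 16.

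In distal sequence aTGACGTCAc was the most frequent, in 53 of 252 members, with 51 positive and a median log2 fold of 1.18 among these. The class gTGACGTCAa had a median of 2.78 in its 23 positive distal members, and of 1.77 in the 10 that remain without a group of related elements described below. That class held 23.1% of all palindromes beyond 1000 bp from a start, 77.4% of them soft-masked as repeats. Of its distal copies 0.772% lay in a positive element, beside 3.06% for aTGACGTCAc. With masked copies left out these values were 1.42% and 3.08%.

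Consensus sites of other factors, searched on both strands, followed the class of the element, and differences between groups were not tested. AP-1 sites (TGAGTCA or TGACTCA), bound by FOS and JUN dimers, were in 29.8% of positive distal members and 38.2% of other positive distal elements. Distal members with an AP-1 site were positive in 75 of 77 cases, with a median of 1.58, and those without one in 177 of 182, with a median of 1.45. The STAT consensus (TTCNNNGAA) was in 22.2% of positive distal members and 23.8% of the others.

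At promoters, 34.0% of positive and 18.9% of negative members held the ETS consensus (CCGGAAG), beside 25.3% and 20.4% of other promoter elements. Promoter members with it were positive in 49 of 69 cases, and those without it in 95 of 181. The SP/KLF consensus (GGGCGG) was in 82.6% of positive and 97.2% of negative promoter members, beside 61.0% and 88.4% of others. The 28 promoter members without an SP/KLF site were positive in 25 cases, and the 222 with one in 119. None of these shares was adjusted for GC content, and the SP/KLF site is made of G and C alone. The ISRE consensus of interferon regulatory factors was in 24 promoter members, 19 of them positive, and in 33 distal members, all positive. Of the 226 promoter members without it 55.3% were positive, and of the 226 distal members without it 96.9%. Other elements with the ISRE consensus were 263 positive and 138 negative at promoters, and 1737 positive and 71 negative in distal sequence. With terms for these and other consensus sites in the regression the log odds ratio of the palindrome was 1.38 against 1.36 at promoters and 2.17 against 2.08 in distal elements.

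The named promoter elements are those with the lowest q-values, and the nearest start is a landmark, since no link to that gene was measured. The element at Babam2, a subunit of BRCA1-associated deubiquitinase complexes, had a log2 fold of 4.39 (chr5:31697576-31698700), and its palindrome was 395.5 bp from the element centre. At Shisa5, a membrane protein tied to p53-induced cell death, the fold was 3.79 and the palindrome stood at -1 bp from the annotated start. Atp5d, a mitochondrial ATP synthase subunit, had 3.47 with the palindrome at -62 bp, and Epb41, a membrane skeleton protein, had 3.34 with the palindrome at -930 bp. Trim26, a ubiquitin ligase, had 2.55, and the zinc-finger gene Zfp119b, whose element has 2 other near-identical matches in the genome, had 2.96. The last belongs to a group of 3 related promoter members with Zfp119a and Zfp959, all positive (1.96 to 2.96).

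The negative promoter members led by q-value were those of Phc1, a Polycomb subunit (-3.66), Prr3 (-2.23), the small GTPase gene Cdc42 (-3.39), Cmip (-2.33), the kinesin gene Kif17 (-2.62) and the cyclic AMP phosphodiesterase gene Pde7a (-2.61). GC contents ran from 64.9% at Phc1 to 75.8% at Cmip. At Phc1 the palindrome lay 683 bp from the centre of a 1400 bp element, near its edge. At Cmip it was 8.5 bp from the centre and at Pde7a 28.5 bp, so central palindromes also occurred in negative elements.

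Among the distal members, the intronic element near Sugct stood at 4.43 on the log2 scale, and that of Pde4d, another cyclic AMP phosphodiesterase gene, at 4.30. The others named were in introns of Uvrag (3.26), Tnfaip8 (2.92), Maml3 (2.82), the leukocyte tetraspanin gene Cd53 (2.88, 4824 bp from its start) and Cmip (3.19), and in these 7 elements the palindrome lay 13 to 62.5 bp from the centre. Cmip thus held a negative member at its promoter and a positive one 28186 bp inside the gene. The negative distal members had smaller folds, with -1.16 near Slc2a7, -1.08 near Foxe1, -1.01 near Nemf and a similar value near Klrb1c.

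The Hfe2 element, with the highest fold of all members (5.85), belongs to 13 distal members related in sequence (at least 80% identity over at least 50% of the shorter element). All 13 were positive, from 1.76 to 5.85 with a median of 3.56, and they were spread over 9 chromosomes with a median of 70.3% soft-masked sequence. They supplied 10 of the 19 distal members with a log2 fold of 3 or more. Without them the median of the positive distal members was 1.43 in place of 1.48, and 23.8% in place of 27.4% reached 2. Among all members 11 were more than 50% masked, 6 had another near-identical match in the genome, and 20 fell into 4 related groups.

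Promoter members were rare among all protein-coding genes (1.32%), and the counts in the gene lists are small. The lists below were written with earlier results of this table known, and their shares are described and not tested. Of 34 CREB target genes 2 had a promoter member (5.88%), beside 1.32% of all 21829 protein-coding genes, and 4 had a member within 50 kb of a start (11.8%, beside 4.92%). Both promoter cases were positive. Crem, the CRE modulator gene, had 2 promoter members. One, with 2 palindromes of which the nearer stood at -3 bp from an annotated start, was at 3.75, and the other, with 1 palindrome at -55 bp from a start, was at 1.77. Sik1, a kinase that is induced by CREB and restrains CRTC coactivators, had one at 1.70 with its palindrome at -235 bp, at a GC content of 72.9%. The other list genes with a member within 50 kb were Nfil3, a basic leucine zipper repressor (1.70, 17715 bp upstream), and the phosphodiesterase gene Pde4b (2.24, intronic).

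An exact palindrome within 1000 bp of a start was present at 11 of the 34 CREB target genes. Besides Crem and Sik1 these were Nr4a2, Dusp1, Ppargc1a, Vgf, Sst, Ccna2, Areg, Th and Cga, whose palindromes lay in no element. Genome-wide 1072 protein-coding genes (4.91%) had such a palindrome, and 287 of them (26.8%) had one inside an element.

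Of 23 genes of the cyclic AMP pathway, a list that shares Pde4b with the CREB targets, 2 had promoter members, of opposite sign. This share is 8.70%, beside 1.32% of all protein-coding genes. The promoter of Prkar1a, a regulatory subunit of protein kinase A, was at 0.81 with the palindrome at -18 bp, and that of Pde7a was at -2.61. Akap13, a kinase anchoring protein, had an intronic member at 1.49. Of the 23 ATF/CREB family and coactivator genes only Crem had a member within 50 kb (4.35%, beside 4.92% of all protein-coding genes). Among 18 genes of the unfolded protein and integrated stress responses, Ppp1r15a, whose product reverses eIF2 alpha phosphorylation, had a promoter member at 1.37 with the palindrome at -8 bp, and the chaperone gene Hspa5 had one at 1.97 that lay 30318 bp downstream of its start.

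Among 20 Th2 genes the promoter of Maf, an activator of Il4, held a negative member (-0.96), and Il1rl1, the interleukin-33 receptor gene, had a positive intergenic member 36045 bp upstream (1.84). Ptgdr2 had a member at 0.59 that lay at another gene's promoter. None of 25 T-cell activation genes had a promoter member, and Fasl, the death ligand gene, had a positive intergenic one (1.39) and Cd4 a negative one at another gene's promoter (-1.03). None of 17 genes of DNA replication and cell cycle had a member within 50 kb. Of all protein-coding genes 1.32% had a promoter member and 4.92% had a member within 50 kb. A list of this size can therefore hold none without differing from all genes.

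Elements with another element nearby mostly shared its sign, with or without the palindrome, and differences between the groups were not tested. Of the positive promoter members 12 had an element within 1000 bp, which was positive in 9 cases, beside 137 of 181 for other positive promoter elements. Of the negative promoter members 14 had one, negative in 11 cases, beside 670 of 747. All 10 neighbours of positive distal members were positive, beside 444 of 513.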

How the data were processed

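STARR-seq output RNA was measured in 2 libraries of 1 group. The authors made 1 element table from both alignments on mm10, as the deposited lists of files record. The sources used here name no aligner, caller or test. The authors deposited a signed fold per element, read as log2, with a linear p-value and q-value and no read counts, so depth and errors per element are unknown. Deposited starts count from 1.

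The palindrome was taken as the subject, and the gene lists were written, with earlier results of these data known; which elements are members follows from sequence alone. Sequences came from GRCm38.p6 and starts from GENCODE M21, the build of the table. The sign was modelled by logistic regression (statsmodels 0.14.6) on promoter class, a 4 df spline of GC content, CpG ratio and log2 width, with errors clustered by 1 Mb window. The fit was tried on simulated signs drawn independently for each element. That trial cannot show how the clustering handles neighbours that depend on each other. 8-mers were tested by score tests with the same covariates but without clustering by window, so their p-values treat elements as independent. Related members were found with blastn 2.17.0, and near-identical matches needed 95% identity over 90% of the element. Shares carry exact 95% binomial intervals. Neighbouring elements are not independent, and p-values measure spread over elements and not over libraries or animals. Named elements are, with 1 per related group, the 8 positive and 6 negative promoter and 8 positive and 4 negative distal members of lowest q-value, the 4 with most sites, and list genes with a promoter member. Elements near list genes within 50 kb, Gnao1 and the closest pair were added after their values were seen.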

Additional observations from a re-analysis of the deposited data

How the results depend on the processing

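The palindrome's odds ratio over all elements and at promoters kept its direction and its call under all 9 alternatives run (stricter q-value, linear GC, other consensus sites, repeats left out, 1 member per related group, promoters of 500 or 2000 bp, central sites, linear fit of the fold). At a q-value below 0.001 the distal log odds ratio was 0.91, 2 or more sites against 1 gave 0.94, central against farther sites 0.15, sites near the start against farther -1.09, and the distal 8-mer rank was 468. With linear GC the site-number contrast was 0.77, and with sites in the central 200 bp 0.33. The centre contrast was 0.67 with promoters of 500 bp and -0.046 in the linear fit of the fold, where the start contrast was -0.40, both on the log2 scale. With central sites 88.2% of all and 69.1% of promoter members were positive. At the stricter q-value, which keeps fewer elements, 17.3% of palindromes within 1000 bp of a start and 1.40% of those beyond were in an element. The causes of the other changes were not tested. The centre contrast could not be fitted with central sites alone, since these all lie within 100 bp of the centre. Leaving out a library was not run, because the table has no value per library. No paired analysis was possible because both libraries belong to 1 group and are pooled in the table.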
